A study of Homo sapiens with 10 samples.

Results

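Messenger RNA of 9 adhesion genes was followed in bortezomib-resistant (BR) and PT cells of HBL2 and JEKO, lines of mantle cell lymphoma. The genes encode the leukocyte integrin chains ITGAL, ITGB2, ITGA4, ITGB7 and ITGB1, the intercellular adhesion molecules ICAM1, ICAM2 and ICAM3, and PECAM1, and no selectin is among them. They were chosen by name, with earlier results of these data known, so counts among them are not an independent test. Every probe set annotated to a single one of these symbols was read, which gave 28 of the 54675 probe sets on the array. The probe set with the highest mean over the 10 arrays stood for its gene, so that the 9 genes are set here against 14529 genes tested.

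The arrays held 3 samples of HBL2 BR, 3 of HBL2 PT, 2 of JEKO BR and 2 of JEKO PT, all from cells growing exponentially. Mantle cell lymphoma arises from mature B cells, both lines were cultured from it, and bortezomib is an inhibitor of the proteasome. The BR cells acquired their resistance under the drug, and PT is taken to mean the parental cells from which they were derived, since the labels give only the letters. No dose, length of exposure or clonal origin is given, each line stands for a single tumour, and nothing says whether replicates were separate cultures, so the spread behind each p-value is that between samples and may be technical.

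Integrins are heterodimers of an alpha and a beta chain that bind ligands on other cells or in the matrix once signals inside the cell have opened them. ITGAL and ITGB2 form LFA-1, which lets lymphocytes bind ICAM1, ICAM2 and ICAM3 on other cells, while ITGA4 joins either ITGB1, to bind VCAM1 and fibronectin, or ITGB7, to bind MADCAM1 of gut vessels. PECAM1 binds itself across cell junctions, and on leukocytes its cytoplasmic tail recruits inhibitory phosphatases. In lymphomas of mature B cells these molecules hold tumour cells to stroma and lymphoid tissue.

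Levels are given in the deposited units, which run from 0 to 4.99 with a median of 0.73 on every array, look logarithmic and have no stated base. Each array holds exactly the same set of values, so a level reports only where a probe set ranks among the others, and a shift of most genes one way cannot be seen. Differences are therefore in units and are not fold changes, and levels of different genes are not compared. The annotated B cell markers (5 of 5) and both mantle cell lymphoma markers lay above the array median on all 10 arrays, and 0 of 5 endothelial, 0 of 7 T and NK cell, 0 of 3 annotated myeloid, 0 of 4 platelet and 1 of 6 epithelial and stromal markers did so. No marker was at 0 on any array. RNA quality was read from the control probe sets of beta-actin, as their 5′ value less their 3′ value. This ran from -1.25 to -0.58, with the 3 lowest values on HBL2 BR replicate 3 (-1.04), JEKO BR replicate 2 (-1.01) and HBL2 PT replicate 1 (-1.25). The same value for GAPDH ran from -0.64 to -0.17. It was lowest on JEKO BR replicate 2 (-0.64), HBL2 PT replicate 3 (-0.44) and HBL2 PT replicate 1 (-0.43). Beta-actin and GAPDH thus ranked the arrays differently, and the alternatives below used beta-actin alone.

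In HBL2, 6 of the 9 genes were lower in BR than in PT cells and 1 was higher, at an adjusted p under 0.05 in limma, a linear model with variances moderated across genes. Over all genes tested 11.8% were called in this comparison, 6.86% lower and 4.91% higher in BR. The median difference of the 9 genes was -0.47 units, against -0.00099 over all genes. In JEKO, 1 of the 9 was higher and 1 lower in BR, with 4.28% of all genes called (2.56% higher and 1.72% lower), and the median difference was 0.17 units against 0.012 over all genes. The JEKO count was 0 when JEKO BR replicate 2 or JEKO PT replicate 1 was left out, 1 when JEKO BR replicate 1 was, and 3 when HBL2 PT replicate 3 was. The HBL2 change was below the JEKO change for 4 genes and above it for 1, with 8.71% of all genes called (5.76% below and 2.95% above), and the medians were -0.36 and -0.011.

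**Figure D1:**
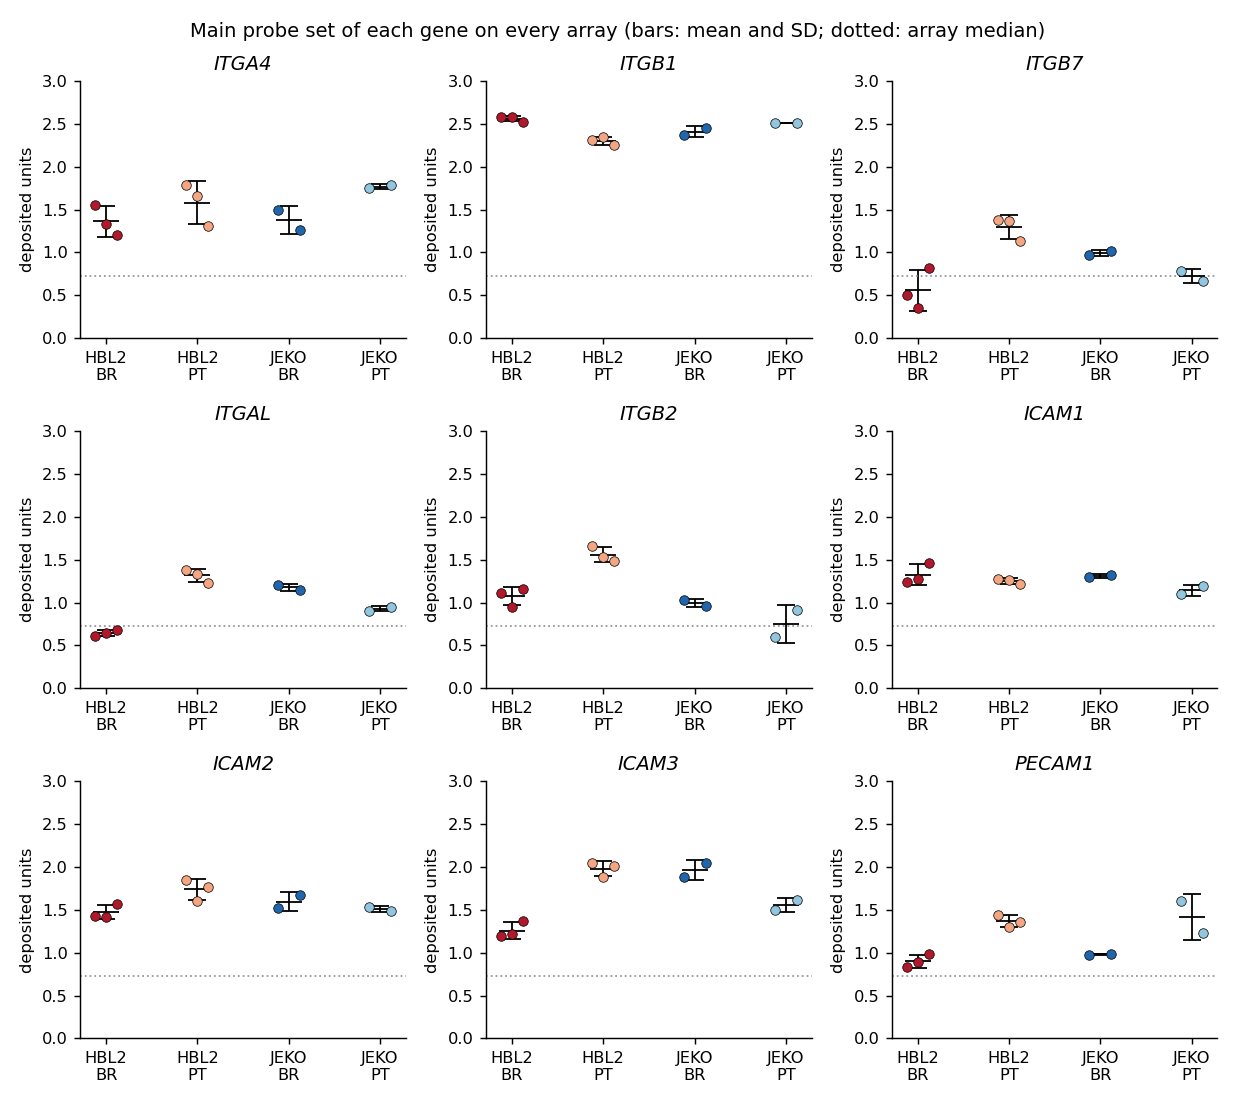
Level of each of the 9 genes on every array, in deposited units, with HBL2 BR, HBL2 PT, JEKO BR and JEKO PT from left to right in each panel; points are arrays, bars give the group mean and SD, and the dotted line is the array median of 0.73. ITGB7, ITGAL, ITGB2 and ICAM3 are lower on every HBL2 BR array than on every HBL2 PT array and higher on both JEKO BR arrays than on both JEKO PT arrays, and PECAM1 is lower on the BR arrays of both lines. Of their JEKO differences only those of ICAM3 and PECAM1 were called. The share of all genes whose groups stand apart in this way was not computed.

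Of the LFA-1 chains, ITGAL is the alpha chain, found mainly on leukocytes. ITGAL stood at 0.61, 0.65 and 0.68 units on the HBL2 BR arrays, against 1.38, 1.33 and 1.23 on the HBL2 PT arrays. In JEKO it stood at 1.21 and 1.15 on the BR arrays, against 0.91 and 0.95 on the PT arrays. All HBL2 BR arrays lay under the array median and under every other array, and neither line's groups overlapped. How many of all genes have groups that do not overlap was not counted. Such separation, here and below, therefore only describes the arrays. The HBL2 difference was -0.67 ± 0.066 (SE, limma adjusted p = 3.64e-06). The JEKO difference was 0.25 ± 0.081 and was not called (adjusted p = 0.10), with a 95% interval of 0.078 to 0.42 before adjustment for the number of genes. The difference between the 2 changes was -0.92 ± 0.105 (adjusted p = 4.22e-05). A second probe set of ITGAL gave -0.64 in HBL2 (adjusted p = 1.01e-04) and 0.18 in JEKO (adjusted p = 0.44).

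ITGB2, the beta chain shared by LFA-1 and the myeloid integrins, stood at 1.11, 0.95 and 1.16 units on the HBL2 BR arrays, against 1.66, 1.53 and 1.48 on the HBL2 PT arrays. On the JEKO BR arrays it stood at 1.03 and 0.96, against 0.60 and 0.91 on the JEKO PT arrays. Groups did not overlap in either line, though JEKO BR replicate 2 and JEKO PT replicate 2 were close. ITGB2 fell by 0.48 ± 0.084 in HBL2 BR (limma adjusted p = 0.0010). The JEKO difference was 0.24 ± 0.10 (adjusted p = 0.24), and the changes of the lines differed by -0.72 ± 0.13 (adjusted p = 0.0028). The JEKO difference was 0.080 without JEKO PT replicate 1 and 0.40 without JEKO PT replicate 2, and was called in neither case (adjusted p = 0.85 and 0.087). With each value replaced by its percentile rank on the array, neither the HBL2 difference (adjusted p = 0.16) nor the difference between the lines (adjusted p = 0.066) was called. A second probe set moved likewise in HBL2 (-0.53, adjusted p = 0.0068), and the remaining one, under the array median on 8 of 10 arrays, gave -0.13 (adjusted p = 0.71).

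The level of both LFA-1 chains was also higher in HBL2 PT than in JEKO PT. The difference was 0.39 ± 0.074 for ITGAL (limma adjusted p = 0.0012) and 0.80 ± 0.094 for ITGB2 (adjusted p = 1.34e-05). In this comparison of the PT cells 23.1% of all genes were called, 13.9% higher and 9.25% lower in HBL2, and 5 of the 9 genes were higher and 1 lower in HBL2. Group means of ITGAL ran, high to low, HBL2 PT, JEKO BR, JEKO PT and HBL2 BR, and of the neighbouring means those of HBL2 BR and JEKO PT differed (adjusted p = 0.010). Group means of ITGB2 ran HBL2 PT, HBL2 BR, JEKO BR and JEKO PT, and of the neighbouring means those of HBL2 BR and HBL2 PT differed.

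ITGB7, the beta chain of the gut-homing integrin, stood at 0.50, 0.36 and 0.82 units on the HBL2 BR arrays, against 1.38, 1.37 and 1.13 on the HBL2 PT arrays. Its JEKO BR levels were 0.97 and 1.01, against 0.78 and 0.67 on the JEKO PT arrays. The HBL2 groups stood clear of each other, with HBL2 BR replicate 3 the highest of the BR arrays and the only one of them above the array median. The JEKO groups did not overlap either, and there the BR arrays were the higher ones. ITGB7 fell by 0.74 ± 0.105 in HBL2 BR (limma adjusted p = 1.59e-04), while the JEKO difference was 0.27 ± 0.13 (adjusted p = 0.29). The changes of the lines differed by -1.004 ± 0.17 (adjusted p = 0.0012). The array holds 1 probe set for ITGB7, so no other probe set bears on it. Its mean in HBL2 PT lay 0.57 ± 0.12 above that in JEKO PT (adjusted p = 0.0022), a call lost with percentile ranks (adjusted p = 0.084) and with ranks turned into normal scores (adjusted p = 0.058). The group means ran in the same order as those of ITGAL, with no neighbouring means that differed (adjusted p = 0.074 to 0.34).

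ITGA4, the alpha chain that ITGB1 and ITGB7 share, was not called in either line. It stood at 1.56, 1.33 and 1.20 units on the HBL2 BR arrays, against 1.78, 1.66 and 1.30 on the HBL2 PT arrays, which overlapped. In JEKO it stood at 1.49 and 1.27 on the BR arrays, below the 1.75 and 1.79 on the PT arrays. The difference was -0.22 ± 0.11 in HBL2 (limma adjusted p = 0.25) and -0.39 ± 0.13 in JEKO (adjusted p = 0.12). The changes of the lines differed by 0.17 ± 0.17, with an interval of -0.20 to 0.54 (adjusted p = 0.64). It was called in HBL2 in 3 of 23 alternatives and in JEKO in 4 of 23, in both lines without HBL2 PT replicate 3 (-0.36, adjusted p = 0.018 in HBL2; -0.39, adjusted p = 0.031 in JEKO). Without HBL2 PT replicate 1 the HBL2 difference was -0.12. Its 4 probe sets differed from each other in JEKO. In HBL2 they gave -0.37 to -0.22, of which the lowest was called (adjusted p = 0.0073), whereas in JEKO that probe set gave 0.013 (adjusted p = 0.97) and the others -0.39 to -0.29. No neighbouring group means differed.

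ITGB1, the beta chain of many receptors for matrix proteins, was the gene of the 9 that was higher in HBL2 BR. It stood at 2.58, 2.58 and 2.52 units on the HBL2 BR arrays, against 2.31, 2.35 and 2.26 on the HBL2 PT arrays. Its JEKO BR levels were 2.37 and 2.46, against 2.51 on both JEKO PT arrays. The groups overlapped in neither line, with BR above PT in HBL2 and below it in JEKO. The difference was 0.26 ± 0.055 in HBL2 (limma adjusted p = 0.0048) and -0.098 ± 0.067 in JEKO (adjusted p = 0.50), and the changes differed by 0.36 ± 0.087 (adjusted p = 0.017). The HBL2 call rested on this probe set: with the median over the probe sets of the gene the difference was 0.18 (adjusted p = 0.54), and with _x_at and _s_at probe sets dropped, since their probes can also match other transcripts, it was 0.16 (adjusted p = 0.61). The other probe sets kept gave 0.12, 0.16 and 0.21. Those of 0.16 and 0.21 correlated with the beta-actin value within groups at 0.94 and 0.93. The part of RNA quality in their differences was not tested. The call for the difference between the lines was lost in 6 of 22 alternatives, among them without HBL2 BR replicate 2 (adjusted p = 0.053), JEKO PT replicate 1 (0.071), JEKO PT replicate 2 (0.063) or JEKO BR replicate 1 (0.091). In PT cells the level was lower in HBL2 than in JEKO by 0.20 units (-0.20 ± 0.061, adjusted p = 0.024), and this call was lost without either JEKO PT array (adjusted p = 0.13 and 0.12).

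**Figure D2:**
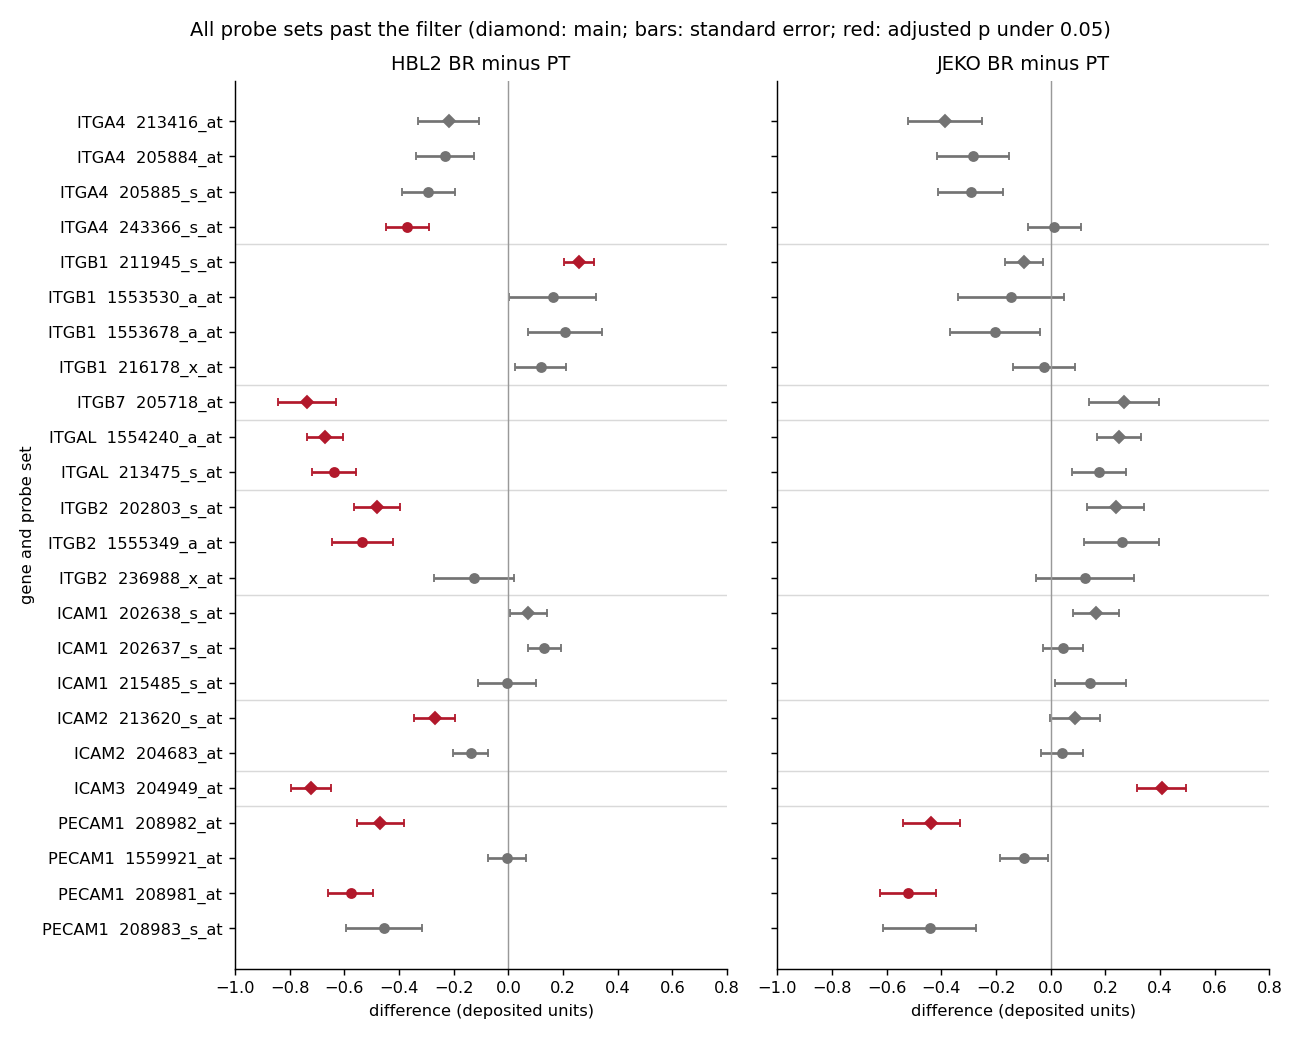
BR minus PT difference in HBL2 (left) and JEKO (right), in deposited units, of each of the 24 probe sets of the 9 genes that passed the filter on low values; diamonds mark the probe set that stands for its gene, bars are 1 standard error and red marks an adjusted p under 0.05. ITGAL, ITGB2 and PECAM1 each have a second red probe set of like difference in HBL2, whereas those of ITGB1 run from 0.12 to 0.26 with only the largest red. The second red probe set of PECAM1 lay under the array median on every BR array and passed the filter through PT arrays alone. It is therefore no independent support.

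Of the ligands of LFA-1, ICAM3, an immunoglobulin-family molecule carried by resting leukocytes, moved furthest apart in the lines. ICAM3 stood at 1.19, 1.21 and 1.37 units on the HBL2 BR arrays, against 2.05, 1.89 and 2.01 on the HBL2 PT arrays. The JEKO BR arrays showed 1.88 and 2.05, against 1.497 and 1.62 on the PT arrays. The 3 HBL2 BR arrays were the lowest of all 10, the JEKO BR arrays reached the levels of HBL2 PT, and neither line's groups overlapped. ICAM3 fell by 0.72 ± 0.071 in HBL2 BR (limma adjusted p = 3.42e-06) and rose by 0.41 ± 0.087 in JEKO BR (adjusted p = 0.015). The changes of the lines differed by -1.13 ± 0.11 (adjusted p = 1.30e-05). Genes called lower in HBL2 BR and higher in JEKO BR made up 0.475% of those tested, and ICAM3 was the only one of the 9 among them. The JEKO call did not survive the omission of JEKO BR replicate 2 (0.32, adjusted p = 0.22) or JEKO PT replicate 1 (0.35, adjusted p = 0.16), nor the change to percentile ranks (adjusted p = 0.078). ICAM3 also has 1 probe set. Its mean in HBL2 PT lay 0.42 ± 0.080 above that in JEKO PT (adjusted p = 0.0011). Group means ran HBL2 PT, JEKO BR, JEKO PT and HBL2 BR, and only the upper pair could not be told apart (adjusted p = 0.91, against 0.015 and 0.011 for the other neighbours).

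ICAM2, the LFA-1 ligand found on endothelium, lymphocytes and platelets, stood at 1.43, 1.42 and 1.57 units on the HBL2 BR arrays, against 1.85, 1.61 and 1.77 on the HBL2 PT arrays. In JEKO it stood at 1.52 and 1.68 on the BR arrays, against 1.53 and 1.48 on the PT arrays. The HBL2 groups were separate by a narrow margin and the JEKO groups overlapped. ICAM2 fell by 0.27 ± 0.072 in HBL2 BR (limma adjusted p = 0.021), and the JEKO difference was 0.089 ± 0.089 (adjusted p = 0.68). Leaving out a single JEKO BR array moved the JEKO difference to 0.0096 (replicate 2) or 0.17 (replicate 1). The changes of the lines differed by -0.36 ± 0.11, which was not called (adjusted p = 0.065, interval -0.60 to -0.12) but was without HBL2 PT replicate 2 (adjusted p = 0.029) or HBL2 BR replicate 3 (adjusted p = 0.044). The HBL2 call was lost in 5 of 23 alternatives, among them without HBL2 PT replicate 1 (adjusted p = 0.078), HBL2 BR replicate 1 (0.087) or HBL2 BR replicate 2 (0.10), and when _x_at and _s_at probe sets were dropped (-0.14, adjusted p = 0.21). The PT difference of 0.23 ± 0.081 (adjusted p = 0.047) was lost in 17 of 22 alternatives. No neighbouring group means differed (adjusted p = 0.22 to 0.80).

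ICAM1, the cytokine-inducible ligand of LFA-1, was called in none of these comparisons. It stood at 1.24, 1.28 and 1.46 units on the HBL2 BR arrays, against 1.28, 1.26 and 1.21 on the HBL2 PT arrays. The JEKO BR arrays showed 1.30 and 1.32, against 1.10 and 1.19 on the PT arrays. The HBL2 groups overlapped, and the JEKO groups lay apart by about as much as the PT arrays lay from each other. The difference was 0.073 ± 0.067 in HBL2 (limma adjusted p = 0.57, interval -0.070 to 0.22) and 0.17 ± 0.082 in JEKO (adjusted p = 0.32, interval -0.0091 to 0.34). The HBL2 difference was 0.0042 without HBL2 BR replicate 3 and 0.12 without HBL2 BR replicate 1. The interval of the difference between the lines was -0.32 to 0.13. Its 3 probe sets gave -0.0045 to 0.13 in HBL2 and 0.046 to 0.17 in JEKO, with 0 called in either, and each carries the _s_at suffix. No neighbouring group means differed.

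**Figure D3:**
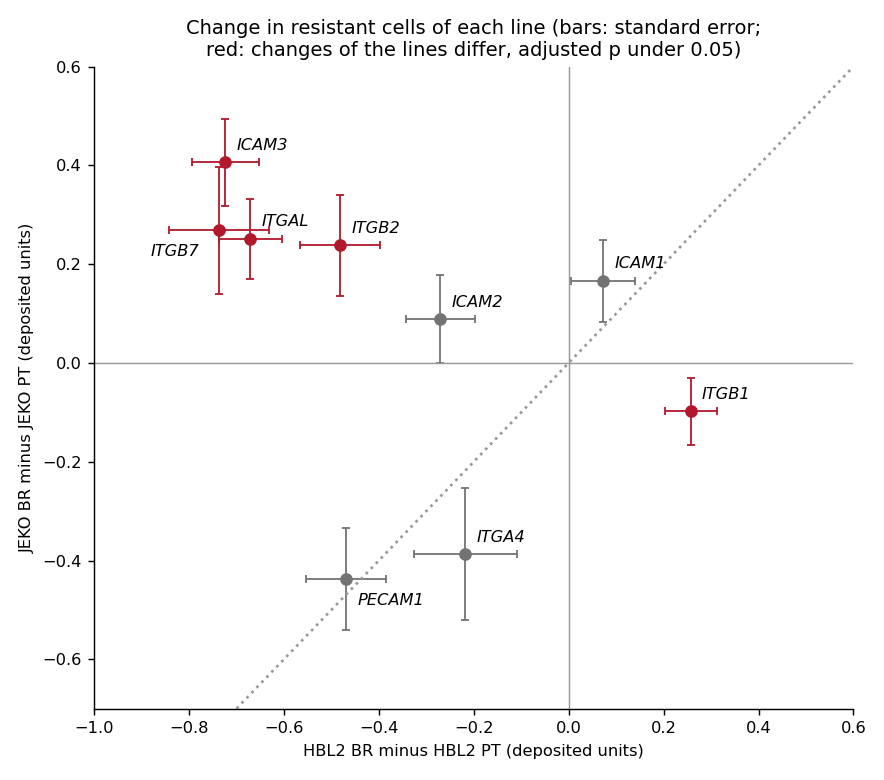
BR minus PT difference in HBL2 (horizontal axis) and in JEKO (vertical axis) of the 9 genes, in deposited units, with bars of 1 standard error, a dotted line of equal change and red for genes whose changes differed between the lines. ICAM3, ITGB7, ITGAL, ITGB2 and ICAM2 lie to the left of 0 for HBL2 and above 0 for JEKO, ITGB1 lies on the opposite side of both, and PECAM1 and ITGA4 are below 0 on both axes.

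PECAM1, the homophilic receptor, was the only one of the 9 called in the same direction in both lines. PECAM1 stood at 0.83, 0.89 and 0.98 units on the HBL2 BR arrays, against 1.44, 1.30 and 1.36 on the HBL2 PT arrays. In JEKO it stood at 0.98 and 0.99 on the BR arrays, against 1.61 and 1.23 on the PT arrays. Every BR array lay under every PT array, whichever the line. PECAM1 fell by 0.47 ± 0.084 in HBL2 BR (limma adjusted p = 0.0013) and by 0.44 ± 0.10 in JEKO BR (adjusted p = 0.024). Genes called lower in both lines made up 0.248% of those tested. The changes of the lines differed by -0.031 ± 0.13, with an interval of -0.31 to 0.25 (adjusted p = 0.93). The JEKO call was lost in 7 of 23 alternatives, among them the omission of either JEKO BR array (-0.43 and -0.44, adjusted p = 0.12 and 0.16) and that of JEKO PT replicate 1 (-0.25, adjusted p = 0.30). The HBL2 call was kept in all 23.

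The probe sets of PECAM1 differed among themselves. A second one gave -0.58 in HBL2 (limma adjusted p = 3.27e-04) and -0.52 in JEKO (adjusted p = 0.013), and another gave -0.46 (adjusted p = 0.059) and -0.44 (adjusted p = 0.22). Both lay under the array median of 0.73 on every BR array and passed the filter through PT arrays alone, so they are no independent support. One further probe set gave -0.0054 in HBL2 (adjusted p = 0.98) and -0.098 in JEKO (adjusted p = 0.67), and the last did not pass the filter on low values. The levels in PT cells differed by -0.052 ± 0.094 between HBL2 and JEKO (adjusted p = 0.75). Group means ran JEKO PT, HBL2 PT, JEKO BR and HBL2 BR, and of the neighbours only JEKO BR and HBL2 PT differed (adjusted p = 0.0065).

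Promoter sequences were at hand for 5 of the 9 genes (ITGA4, ITGB1, ITGB7, ICAM1 and ICAM3), taken from RefSeq on build GRCh38.p14 as windows of 250 bases before and 50 after an annotated start. They are printed for the beta chains that moved in opposite directions in HBL2, and for ICAM3 beside its neighbour ICAM1. Of several annotated starts of ITGB1 and ICAM3 the first is shown. Capitals mark matches on either strand to GAGGAA (the core bound by ETS factors such as SPI1), GGGCGG (the GC box of SP1) and GGAANTTCC (a form of the kappaB site of NF-kB), so TTCCTC and CCGCCC are matches on the reverse strand. Windows lie at chr12:53207202-53207501 on the minus strand for ITGB7, chr10:32958181-32958480 on the minus strand for ITGB1, chr19:10339575-10339874 on the minus strand for ICAM3 and chr19:10270870-10271169 on the plus strand for ICAM1, and each is written 5′ to 3′ along its gene.
ITGB7: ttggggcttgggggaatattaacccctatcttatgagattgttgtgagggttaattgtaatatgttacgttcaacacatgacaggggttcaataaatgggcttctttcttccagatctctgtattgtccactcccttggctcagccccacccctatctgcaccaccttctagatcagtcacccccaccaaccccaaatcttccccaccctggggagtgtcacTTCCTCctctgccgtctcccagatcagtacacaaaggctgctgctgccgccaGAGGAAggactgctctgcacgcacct
ITGB1: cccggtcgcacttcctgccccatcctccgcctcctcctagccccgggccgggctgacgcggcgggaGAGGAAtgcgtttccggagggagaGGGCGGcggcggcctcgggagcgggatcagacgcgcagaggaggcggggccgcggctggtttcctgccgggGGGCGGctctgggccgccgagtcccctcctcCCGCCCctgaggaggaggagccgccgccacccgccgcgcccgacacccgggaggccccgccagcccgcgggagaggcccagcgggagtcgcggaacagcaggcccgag
ICAM3: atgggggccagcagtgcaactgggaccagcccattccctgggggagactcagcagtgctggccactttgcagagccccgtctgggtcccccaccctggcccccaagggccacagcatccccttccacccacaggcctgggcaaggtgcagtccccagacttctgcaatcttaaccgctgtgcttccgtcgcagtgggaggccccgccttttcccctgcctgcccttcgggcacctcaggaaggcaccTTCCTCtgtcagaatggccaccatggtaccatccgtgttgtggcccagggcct
ICAM1: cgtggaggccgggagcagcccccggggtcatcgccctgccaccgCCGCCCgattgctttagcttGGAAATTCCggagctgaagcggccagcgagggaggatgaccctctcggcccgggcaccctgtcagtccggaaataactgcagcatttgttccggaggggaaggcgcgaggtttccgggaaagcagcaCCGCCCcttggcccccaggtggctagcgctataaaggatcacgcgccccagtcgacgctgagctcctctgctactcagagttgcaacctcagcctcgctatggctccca

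With the start base as position 1 and the leftmost base of a match as its place, ITGB7 held GAGGAA at -28 and 25 and no GC box. The ICAM3 window printed held GAGGAA at -3 and no GC box. Of the other ICAM3 starts, the second held none of these letters and the third held GAGGAA at -45 and GC boxes at -188 and -33. The ITGB1 window printed held GAGGAA at -184 and GC boxes at -160, -89 and -58, and that of its other start held none of these. ICAM1 held GC boxes at -206 and -59 and the kappaB-like match at -186, and no GAGGAA. Of the 35116 promoter windows of the same length, 27.85% held GAGGAA, 44.95% a GC box and 0.965% the kappaB-like letters. The RUNX core TGTGGT, also searched on both strands, was in 13.07% of them and in 0 of the 8 windows of these genes. The matches describe these letters only and say nothing of binding.

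ICAM1 and ICAM3 lie in a cluster on chromosome 19 with ICAM4 and ICAM5 among the genes between them. Neither of these neighbours was called. ICAM4, which carries the Landsteiner-Wiener blood group, gave -0.18 in HBL2 (limma adjusted p = 0.25) and 0.090 in JEKO (adjusted p = 0.77). ICAM5, known from neurons, gave -0.10 (adjusted p = 0.54) and 0.15 (adjusted p = 0.52).

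The other genes of the pathway were read in 3 lists, also chosen with earlier results of these data known. Of 20 annotated partner chains of integrins 15 passed the filter, and 1 rose and 0 fell in either line, where 11.8% (HBL2) and 4.28% (JEKO) of all genes were called. This was ITGAE, the alpha chain that pairs with ITGB7 to bind E-cadherin, which rose by 0.48 ± 0.056 in HBL2 BR (limma adjusted p = 2.135e-05) and by 0.31 ± 0.069 in JEKO BR (adjusted p = 0.018). The median difference of this list was -0.0040 in HBL2 and -0.053 in JEKO.

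The second list holds genes that open integrins, hold them back or tie them to actin, so its counts mix opposite roles. Of 22 annotated 20 were tested, with 7 lower and 1 higher in HBL2 BR, where 6.86% of all genes were lower and 4.91% higher, and 1 lower and 0 higher in JEKO BR, where 1.72% were lower and 2.56% higher, with median differences of -0.14 and 0.040. VCL, or vinculin, which links talin to actin, fell by 0.52 ± 0.057 in HBL2 BR (limma adjusted p = 9.32e-06). FERMT3, the kindlin of blood cells, which binds beta chain tails, fell by 0.50 ± 0.075 (adjusted p = 2.92e-04). RASGRP2, an activator of RAP1, fell by 0.31 ± 0.067 (adjusted p = 0.0051). APBB1IP, the RAP1 effector RIAM that brings talin to integrins, fell by 0.36 in both lines (adjusted p = 0.0012 in HBL2 and 0.017 in JEKO). The changes of the lines differed for 4 of the 20, against 8.71% of all genes, all lower in HBL2, among them FERMT3 (-0.69, adjusted p = 0.0017) and VCL (-0.44, adjusted p = 0.0060). The other falls in HBL2 BR were those of SIPA1, which switches RAP1 off, PTK2B, the kinase PYK2, and the adaptor SKAP2, between -0.30 and -0.25, and SKAP1, an adaptor that takes part in LFA-1 activation in T cells, rose by 0.29.

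Of 22 annotated ligands and partners of the 9 genes 19 were tested, with 3 higher and 2 lower in HBL2 BR (4.91% and 6.86% of all genes), 0 higher and 2 lower in JEKO BR (2.56% and 1.72% of all genes), and median differences of -0.080 and 0.049. CD38, a ligand of PECAM1, rose by 0.36 ± 0.070 in HBL2 BR (limma adjusted p = 0.0022) and fell by 0.31 ± 0.085 in JEKO BR (adjusted p = 0.0495), so that the lines differed by 0.68 ± 0.11 (adjusted p = 0.0011). The JEKO call of CD38 lay at the threshold. Its JEKO BR arrays stood at 0.58, under the array median, and 0.80, against 1.003 on both JEKO PT arrays. No alternatives are given for genes of the lists. PTPN6, the phosphatase SHP1 that the PECAM1 tail can bind, fell by 0.345 ± 0.062 in HBL2 BR (adjusted p = 0.0012). CD99, which acts with PECAM1 in transmigration of leukocytes, fell by 0.35 ± 0.065 (adjusted p = 0.0015). ACTN1, or alpha-actinin, rose by 0.36 ± 0.10 (adjusted p = 0.030), and JAM2, a junctional ligand of ITGA4 with ITGB1, rose by 0.29 ± 0.077 (adjusted p = 0.020). RDX, or radixin, which ties ICAM tails to actin, fell by 0.41 ± 0.076 in JEKO BR (adjusted p = 0.0061). The HBL2 change was above the JEKO change for 3 of the 19 and below it for 2, against 2.95% and 5.76% of all genes. Above were CD38, JAM2 (0.50, adjusted p = 0.016) and RDX (0.47, adjusted p = 0.0065). Below were PTPN6 (-0.58, adjusted p = 0.0013) and CD99 (-0.57, adjusted p = 0.0023), with JEKO differences of 0.24 and 0.21 that were not called.

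**Figure D4:**
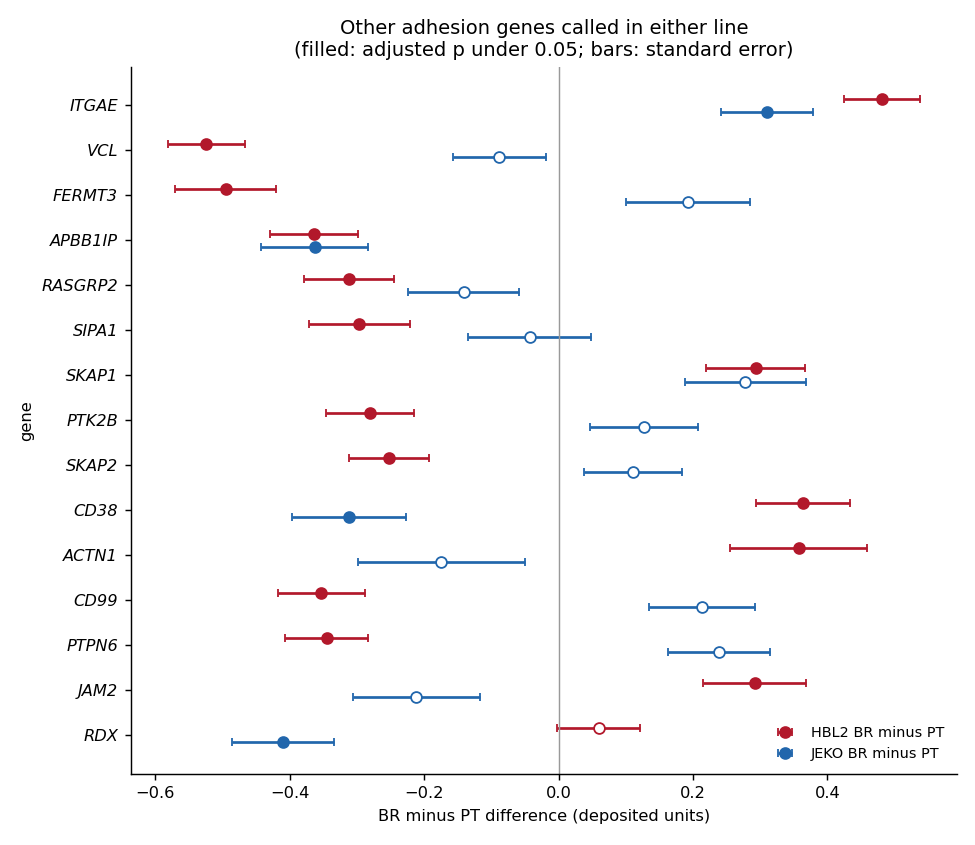
BR minus PT difference, in deposited units with bars of 1 standard error, of the genes of the 3 lists called in at least 1 line, for HBL2 (red) and JEKO (blue); filled points passed an adjusted p under 0.05. ITGAE is filled above 0 and APBB1IP below 0 in both lines, and CD38 is filled above 0 in HBL2 and below 0 in JEKO.

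By pattern over the 10 arrays, the gene most like ICAM3 was CCL4, a chemokine (Pearson r = 0.992), followed by C11orf21 (0.980) and CPXM1 (0.976). CPXM1 was also the gene most like ITGAL (0.985), ahead of GTF2IRD2 (0.976) and TYROBP (0.970). ITGB7 was most like B3GNT7 (0.958), ITGB2 most like CD300A (0.969) and PECAM1 most like ADAM19 (0.957). ICAM2 was most like FHOD1 (0.977), ICAM1 most like DNM1 (0.933), ITGB1 most like ZNF594 (0.949) and ITGA4 most like RAB3C (0.957). The arrays fall into 4 groups, so these correlations describe group means as much as single arrays.

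Values that moved with the groups stand beside these results. The summed level of the 5 B cell markers was 10.21 to 10.99 units on the HBL2 BR arrays, against 11.17 to 12.11 on the HBL2 PT arrays. In JEKO it was 11.76 to 11.93 on the BR arrays, against 11.52 to 11.74 on the PT arrays. The sum was thus lower in HBL2 BR and, by a narrow margin, higher in JEKO BR, as were the levels of ITGAL, ITGB2, ITGB7 and ICAM3, and its part in those results was not tested. The 7 T and NK cell markers, of which 1 passed the filter, summed to 3.42 to 3.52 in HBL2 BR and 3.59 to 3.76 in HBL2 PT. The mantle cell lymphoma markers summed to 4.88 to 4.89 in JEKO BR and 5.17 to 5.36 in JEKO PT. The 5 endothelial markers, of which 0 passed the filter, summed to 2.384 to 2.99 in JEKO BR, just above the 2.23 to 2.382 in JEKO PT, and overlapped between HBL2 BR and HBL2 PT. The part of these sums in the results, PECAM1 and ICAM2 included, was not tested. Sums of myeloid, platelet, and epithelial and stromal markers overlapped between BR and PT in both lines. In bulk RNA fewer cells with a transcript and less of it per cell cannot be told apart.

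Beta-actin values ran most closely with 4 probe sets, none of them the one that stands for its gene above. Within groups, the correlation with the 5′ less 3′ value over 10 arrays was 0.93 to 0.94 for 2 probe sets of ITGA4 and 2 of ITGB1, and -0.78 to 0.71 for the other 24. It was -0.76 for the ITGAL probe set reported above, -0.625 for that of ITGB7 and -0.58 for that of ICAM3, and the HBL2 calls of these genes were kept with the value as a covariate. With the covariate 7 of the 9 genes were called in HBL2 and 2 in JEKO, as without it. Of all genes tested, 2150 were then called in HBL2 and 785 in JEKO, against 1711 and 622 without it. Without the 3 arrays of lowest value, an alternative chosen after seeing the data, the JEKO differences of ICAM3 and PECAM1 were 0.32 and -0.44. The HBL2 differences of ITGAL, ITGB7 and ICAM3 were then -0.65, -0.82 and -0.75. The JEKO counts without these arrays are given below.

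**Figure D5:**
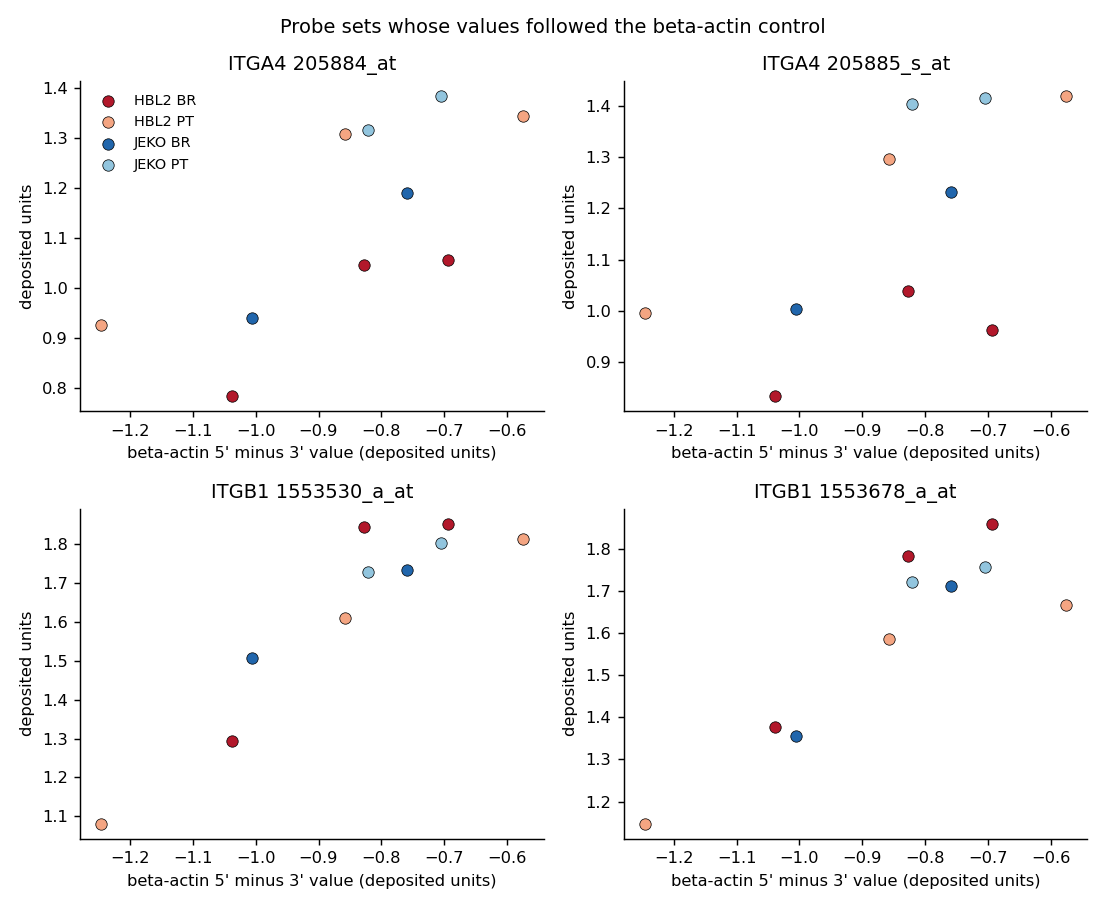
Level of 2 probe sets of ITGA4 and 2 of ITGB1 on every array, in deposited units, against the beta-actin value (5′ less 3′) of the array, coloured by group. Within each panel the arrays of lowest beta-actin value, HBL2 BR replicate 3, JEKO BR replicate 2 and HBL2 PT replicate 1, are the lowest of their groups; these are the probe sets with within-group correlations of 0.93 to 0.94.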

How the data were processed

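RNA from 10 cultured samples was hybridised to Affymetrix arrays. Per the submitters' processing notes the authors used MAS5, of unstated version, and no source used here gives later steps. The deposited values are a score of unstated log base, with the same distribution on every array; the planned log2 step was therefore not applied. Of 54675 probe sets 41091 had 1 gene symbol in the platform annotation. Probe sets that reached the 50th percentile of an array on 2 or more arrays were kept (27577), and the one of highest mean stood for its gene (14529 genes). Of the 28 probe sets of the 9 genes 24 were kept. Group means were fitted in limma 3.58.1 under R 4.3.3 (lmFit, contrasts.fit, eBayes with trend) with 6 residual degrees of freedom. Tests were two-sided, with Benjamini-Hochberg adjustment over all genes, or over all probe sets kept for single probe sets. Calls are at an adjusted p under 0.05. Values after ± are standard errors, and intervals are 95% and unadjusted. The 9 genes and the lists were chosen with earlier results of these data known. Genes named beyond the 9 were up to 4 called genes of largest change per list and line, with the remaining called genes of a list named after their values were seen, the genes between ICAM1 and ICAM3 with the ICAM name, and the genes most correlated with each of the 9. Alternatives covered the filter, variance model, array weights, each line alone, probe set choice, percentile ranks, normal scores, a beta-actin covariate, a replicate block and leaving out arrays. The number of arrays limits the precision, and no detection calls were used.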

Additional observations from a re-analysis of the deposited data

Results flagged for a closer look

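For 5 of the 9 genes the BR minus PT difference itself differed between the lines by a test of that difference (limma adjusted p under 0.05). The HBL2 change minus the JEKO change was -1.13 units for ICAM3, -1.004 for ITGB7, -0.92 for ITGAL and -0.72 for ITGB2, each with a fall in HBL2 BR and a positive value in JEKO BR that was called for ICAM3 alone. It was 0.36 for ITGB1, higher in HBL2 BR and with a JEKO value of -0.098 that was not called. The call for this difference between the lines was lost for ITGB1 in 6 of 22 alternatives. For ITGB2 it was lost with percentile ranks (limma adjusted p = 0.066). The JEKO call of ICAM3 was lost in 4 of 23.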

How the results depend on the processing

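Of the 9 genes, ITGB7, ITGAL, ICAM3 and PECAM1 kept their HBL2 call in all 23 alternatives run, and ITGB7, ITGAL and ICAM3 kept their call for the difference between the lines in all 22. Not every alternative could move a difference. For ITGB7 and ICAM3, with 1 probe set each, the filter, variance model and probe set choice left the HBL2 difference unchanged. So did leaving out a JEKO array. Of the genes tested, the number called in HBL2 was 2684 with array weights and 1118 to 1647 without 1 array, against 1711. In JEKO, 1032 genes were called with array weights, 389 without a variance trend, 140 when the 3 arrays lowest for beta-actin were dropped and 120 to 942 without 1 array, against 622. Of the 9 genes, 0 were called in JEKO with percentile ranks or without those 3 arrays, 1 without a trend or with normal scores and 0 to 3 without 1 array, against 2. For the difference between the lines 1948 genes were called with array weights, 619 without the 3 arrays and 658 to 1473 without 1 array, against 1266. For the PT cells the count was 1974 to 3610 without 1 array, against 3361. Of all genes, 439 were called in JEKO with percentile ranks and 420 with normal scores, against 622. The cause of these shifts was not tested, the smaller number of samples where arrays were left out included. Differences that were not called changed sign. For ITGA4 the difference between the lines was -0.047 with the median over probe sets. For PECAM1 it was 0.012 with that median and -0.031 with all arrays, and without 1 array it ran from -0.22 to 0.16 (0.0055 without HBL2 PT replicate 1, 0.0039 without HBL2 BR replicate 1, 0.16 without JEKO PT replicate 2). The PECAM1 difference between HBL2 PT and JEKO PT was 0.042 with the median over probe sets and -0.24 to 0.14 without 1 array, the highest without JEKO PT replicate 1. Whether replicate numbers pair the samples is not stated. Deviations from the group mean of same-numbered BR and PT arrays correlated at 0.008 to 0.136 in HBL2 and at 0.078 in JEKO. In HBL2 not every array correlated best with its own number. With 2 arrays a group, the JEKO correlations are a single value of either sign (0.078 and -0.078), so the check could not decide on pairing. With the replicate block 7, 3, 5 and 6 of the 9 genes were called in HBL2, in JEKO, for the difference between the lines and for the PT cells, and 1741, 601, 1257 and 3402 of all genes. A JEKO group reduced to 1 array was assumed to vary like the others.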
